A study of Mus musculus with 49 samples.

Results

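Whole urinary bladders of mice that drank 50 ppm arsenate for 1 week were compared with bladders of mice that drank plain water for the same week. The comparison held 10 of the 49 arrays of the study, 5 of each group, chosen by the dose and harvest in their titles. All were adult female C57Bl/J mice aged 76 days, and each array held the RNA of 1 mouse without pooling, so the p-values measure the spread between mice. Bladders of 14 mice of the same harvest that drank 0.5 ppm (4 arrays), 2 ppm (5 arrays) or 10 ppm (5 arrays), and of 10 mice aged 155 days killed after 12 weeks of water or 50 ppm, served for reference. All mice of a group shared the first number of their label, 3 for water and 19 for 50 ppm at 1 week, and what it stands for is not given, so dose and this number cannot be told apart. RNA was hybridized to Affymetrix Mouse430_2 arrays, on which many genes have several probe sets. A level is the log2 of the deposited signal plus 16, on which 4 is the floor, and a change is the 50 ppm mean minus the water mean on that scale.

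Inorganic arsenate is reduced to arsenite in cells, methylated by As3mt and excreted largely in urine, which brings arsenic species into contact with the bladder lining. That lining, the urothelium, consists of umbrella cells sealed by uroplakin plaques over intermediate and basal cells, and it rests on a stroma and a thick smooth muscle coat. Arsenite binds thiols, and in cultured cells it is known for induction of Hmox1, metallothioneins and NRF2 targets. The named tissue was checked against its markers: of the 20 umbrella cell genes listed, 19 were measured. The uroplakins Upk1a, Upk1b, Upk2, Upk3a and Upk3b had mean levels in the water mice of 13.97, 14.79, 13.97, 14.62 and 14.02, near the top of the scale.

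At 50 ppm for 1 week, 49 of 14641 genes tested passed limma's test at a Benjamini-Hochberg adjusted p under 0.05, which is 0.335% of all genes. Of these, 36 fell (0.246%) and 13 rose (0.0888%). The falls included 7 transcripts of a list of liver genes, which are described apart. The remaining 42 genes, 29 lower and 13 higher, were all well expressed, with a higher group mean between 7.50 and 12.34 and 0 of them near the floor. Changes were modest: rises spanned 0.37 to 0.98 and falls spanned -0.34 to -1.35, and 8 genes changed at least 2-fold. In 40 of the 42 the water and 50 ppm arrays did not overlap, beside 2.52% of all genes; Sdc4 and Msln were the exceptions. At an unadjusted p under 0.05, 1689 genes (11.5%) differed. The count of 49 rested on single mice: it was 23, 29 or 30 without water replicate 2, 3 or 5, 27 without 50 ppm replicate 3 and 82 without 50 ppm replicate 2. Direction held for all 42 genes in each of these fits, and 14 of the 42 kept their call in all 10 fits with 1 mouse left out.

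**Figure D1:**
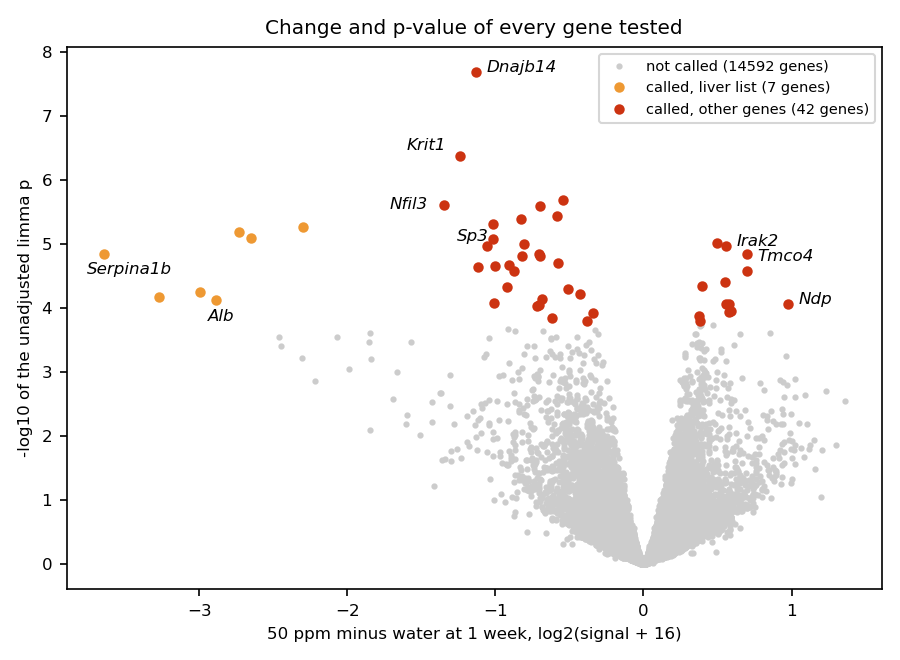
Each point is 1 of the 14641 genes tested; the horizontal axis is the change at 1 week (50 ppm minus water, log2 of signal plus 16) and the vertical axis is minus log10 of limma's unadjusted p. Of the 49 called genes 36 lie to the left and 13 to the right, and the 7 called liver transcripts lie between -2.30 and -3.64.

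Promoter sequences of 4 genes described below are shown first, of which Nfil3 and Sp3 passed the gene test while Ciart and Tef did not. The sequences are from RefSeq (GRCm38.p6), each from 250 bases before to 50 bases after the first listed start of the gene. They were chosen because Nfil3, Ciart and Tef belong to the circadian clock and its output, and because Sp3 is itself a factor that binds GC boxes. Capitals mark matches on either strand to the letters AGGTCA (the core letters bound by ROR and REV-ERB receptors) in Nfil3, CACGTG (the E box of CLOCK and BMAL1) in Ciart and Tef, and GGGCGG (the GC box) in Sp3.
Nfil3 promoter, chr13:52980990-52981289, minus strand: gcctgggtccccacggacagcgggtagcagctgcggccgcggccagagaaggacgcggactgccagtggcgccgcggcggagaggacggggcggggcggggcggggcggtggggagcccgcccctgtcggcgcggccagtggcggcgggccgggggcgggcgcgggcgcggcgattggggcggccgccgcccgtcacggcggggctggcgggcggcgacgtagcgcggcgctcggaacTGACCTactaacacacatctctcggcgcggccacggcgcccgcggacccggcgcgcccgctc
Ciart promoter, chr3:95882179-95882478, minus strand: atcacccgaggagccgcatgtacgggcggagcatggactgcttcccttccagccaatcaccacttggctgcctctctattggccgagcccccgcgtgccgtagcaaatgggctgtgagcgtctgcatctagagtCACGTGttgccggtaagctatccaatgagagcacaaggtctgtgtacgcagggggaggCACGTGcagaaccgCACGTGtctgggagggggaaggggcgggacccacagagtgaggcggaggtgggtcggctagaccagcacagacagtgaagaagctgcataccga
Tef promoter, chr15:81802423-81802722, plus strand: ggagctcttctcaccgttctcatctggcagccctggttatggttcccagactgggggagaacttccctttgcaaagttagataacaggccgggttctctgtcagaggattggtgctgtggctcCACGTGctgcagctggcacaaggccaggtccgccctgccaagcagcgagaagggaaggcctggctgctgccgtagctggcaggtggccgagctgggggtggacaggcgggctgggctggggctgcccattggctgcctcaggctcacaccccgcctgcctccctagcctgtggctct
Sp3 promoter, chr2:72980397-72980696, minus strand: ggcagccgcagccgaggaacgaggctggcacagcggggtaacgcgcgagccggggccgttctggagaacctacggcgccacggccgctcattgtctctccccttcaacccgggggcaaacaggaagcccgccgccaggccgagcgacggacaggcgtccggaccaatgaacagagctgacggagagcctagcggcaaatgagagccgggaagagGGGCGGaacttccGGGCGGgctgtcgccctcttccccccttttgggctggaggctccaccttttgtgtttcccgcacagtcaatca
The Nfil3 window held 1 AGGTCA match, the Ciart window 3 E boxes, the Tef window 1 E box and the Sp3 window 2 GC boxes. No motif contains another. Among the 11725 tested genes with a promoter in the table, 60.4% held a GC box, beside 72.0% of the 25 promoters found for the 29 falls and 60% of the 10 found for the 13 rises. Of the 17 promoters found for clock genes 88.2% held a GC box. An E box stood in 9.64% of all tested promoters, 29.4% of clock genes, 8.0% of falls and 20% of rises. AGGTCA stood in 12.7% of all tested promoters, 17.6% of clock genes, 16.0% of falls and 20% of rises. A match describes the letters and is no evidence that a factor binds there.

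Among the falls, Dnajb14 and Krit1 had the smallest p-values. Dnajb14, which encodes a J-domain co-chaperone of the endoplasmic reticulum membrane, had levels of 9.12, 9.24, 9.13, 8.79 and 9.04 in the water mice and 8.04, 8.15, 7.78, 8.20 and 7.49 in the 50 ppm mice. All 5 treated bladders lay below all 5 controls and below all 14 lower dose bladders, whose range was 8.59 to 9.42. The mean went from 9.06 ± 0.17 to 7.93 ± 0.30 (SD, n = 5 each), a fall of 1.13 ± 0.14 (SE; limma adjusted p = 0.000296) to 0.457 of the water value. Of the 45 J-domain genes measured, Dnajb14 alone passed the test, beside 0.335% of all genes. Of the 45, 18 were higher and 27 lower.

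Krit1, a scaffold protein of the cerebral cavernous malformation complex at endothelial junctions, had levels of 9.01, 9.47, 9.32, 8.96 and 8.83 in water and 8.04, 8.59, 7.31, 7.86 and 7.60 at 50 ppm. The groups did not overlap, although the treated mice spread over more than a log2 unit. The fall was -1.24 ± 0.19 (SE, limma adjusted p = 0.00309). Of 17 endothelial markers, 13 were higher and 4 lower.

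Sp3, a zinc finger factor that competes with Sp1 for GC boxes, had levels of 8.52, 9.32, 8.80, 8.64 and 8.73 in water and 7.79, 7.28, 7.67, 8.09 and 8.09 at 50 ppm. Every treated bladder lay below every control and below the lower dose range of 8.27 to 9.11. The mean fell from 8.80 ± 0.31 to 7.78 ± 0.34 (SD, n = 5 each), a change of -1.02 ± 0.18 (SE, limma adjusted p = 0.00874). Sp1 itself fell by 0.51 ± 0.11 on the log2 scale (limma adjusted p = 0.0238), but its 2 other probe sets gave 0.26 and 0.12. Sp1 is named after its values were seen, as are Sdc4, Prdm2, Med1, F2r, Sfpq, Ppil3, Ubl3, Polh and Camk2n1 below. Other regulators of transcription and chromatin that fell were Med1, a Mediator subunit, by 0.70, Prdm2, a histone methyltransferase, by 0.70, Ubn1, a subunit of the HIRA histone chaperone, by 0.58, and the zinc finger gene Zfp280d by 0.83.

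Genes of RNA processing were represented by Sfpq, Srek1 and Ppil3. Sfpq, an abundant nuclear protein of splicing and paraspeckles, had levels of 11.35, 11.41, 11.27, 10.88 and 11.35 in water and 10.46, 10.65, 10.22, 10.72 and 10.66 at 50 ppm. Its lowest control stood only a little above its highest treated bladder. Sfpq fell by 0.71 ± 0.15 (SE, limma adjusted p = 0.0315), Srek1, a splicing regulator with serine and arginine rich repeats, by 0.92 ± 0.19 (0.023), and Ppil3, a cyclophilin, by 0.43. Of 5 other probe sets of Sfpq, 4 had the same sign and 0 had at least 0.5 of its change, with the highest at 0.22. Of 4 others of Srek1, 3 had the same sign and 1 at least 0.5 of its change, with the highest at 0.44. Of 37 splicing factors listed, 9 were higher and 28 lower with a median of -0.07, beside 0.007 over all genes; at an unadjusted p under 0.05, 2 were higher and 4 lower (16.2%, beside 11.5% of all genes), led by Sf3b1 at -0.60 (limma adjusted p = 0.0792) and Rbm25 at -0.54.

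Cell surface and signalling genes formed another set of falls. Sdc4, a heparan sulfate proteoglycan of focal adhesions, had levels of 12.45, 12.44, 12.26, 12.08 and 12.44 in water and 11.01, 12.39, 10.96, 11.30 and 10.94 at 50 ppm. A single treated mouse, replicate 2, sat within the controls while the other 4 were about a log2 unit lower. The fall was -1.02 ± 0.18 (SE, limma adjusted p = 0.00971), and without that mouse it was -1.28. Crim1, a membrane protein that binds bone morphogenetic proteins, went from 9.70 to 8.65. F2r, the thrombin receptor PAR1, fell by 0.58 ± 0.11 (SE, limma adjusted p = 0.0129), Spsb1, an adaptor of a ubiquitin ligase, by 0.72, Cldnd1, a claudin-like membrane protein, by 0.54, Ubl3, a ubiquitin-like membrane-anchored protein, by 0.34 and Camk2n1, an inhibitor of calcium/calmodulin kinase II, by 0.38. Msln, a surface protein of mesothelium, fell by 0.68 ± 0.15 (SE, limma adjusted p = 0.0302). Its controls were at 9.40 to 10.46 and its treated mice at 9.04 to 9.41. Of 8 mesothelial markers it was the 1 called, beside 0.335% of all genes, with 4 higher and 4 lower.

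The remaining falls included genes of stress response and metabolism. Sesn3, a sestrin that restrains mTORC1, had levels of 12.01, 11.85, 11.63, 11.39 and 11.42 in water and 10.33, 11.16, 10.15, 10.82 and 10.25 at 50 ppm. Its groups were apart, and the lower dose means stepped through 11.45, 11.22 and 10.74 at 0.5, 2 and 10 ppm. Sesn3 fell by 1.11 ± 0.22 (SE, limma adjusted p = 0.0134). Glrx3, a monothiol glutaredoxin of iron-sulfur cluster handling, had levels of 7.55, 7.84, 7.66, 7.75 and 7.63 in water and 6.71, 6.30, 7.17, 7.10 and 6.63 at 50 ppm, without overlap. Glrx3 fell by 0.91 ± 0.18 (SE, limma adjusted p = 0.0132). It was the 1 called gene of 23 measured for thioredoxin, peroxiredoxin and superoxide defence, beside 0.335% of all genes. Ppp1r3c, which targets protein phosphatase 1 to glycogen, fell by 0.70 ± 0.12 (SE, limma adjusted p = 0.00748), but the lower doses had means of 10.51, 10.70 and 10.50, near the 50 ppm level. Far1, a peroxisomal fatty acyl-CoA reductase of ether lipid synthesis, fell by 0.82, Ggact, which breaks down gamma-glutamylamines, by 1.01, Tmed5, a p24 cargo receptor, by 0.88, Gas2l3, a linker of actin and microtubules, by 1.00, and Polh, the translesion DNA polymerase eta, by 0.62. Gm4432 also fell, by 0.81.

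The 13 rises were smaller. Ndp, which encodes norrin, a ligand of Frizzled 4, had levels of 6.27, 6.75, 6.20, 6.73 and 6.65 in water and 7.58, 8.13, 7.46, 7.24 and 7.09 at 50 ppm. All treated mice were higher, and the mean went from 6.52 ± 0.26 to 7.50 ± 0.40 (SD, n = 5 each), a 1.97-fold rise of 0.98 ± 0.21 (SE, limma adjusted p = 0.0313). Irak2, a kinase-like adaptor of interleukin 1 and Toll-like receptor signalling, had levels of 9.95, 9.59, 10.05, 9.88 and 9.98 in water and 10.35, 10.35, 10.47, 10.72 and 10.33 at 50 ppm. Every treated bladder lay above every control and above the lower dose range of 9.57 to 10.19, and the rise was 0.56 ± 0.10 (SE, limma adjusted p = 0.00971). Tmco4, a transmembrane protein, had levels of 9.21, 9.21, 9.0, 9.05 and 9.50 in water and 9.93, 9.84, 10.04, 9.89 and 9.79 at 50 ppm, a rise of 0.70 ± 0.13 (SE, limma adjusted p = 0.0108). The treated mice were above the controls but inside the lower dose range of 9.12 to 10.10.

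Metabolic genes among the rises were Gpat4, which starts glycerolipid synthesis, Hsd17b2, which oxidises estradiol and testosterone, Ppox, the protoporphyrinogen oxidase of heme synthesis, and Dglucy, a D-glutamate cyclase. Gpat4 rose by 0.50 ± 0.09 (SE, limma adjusted p = 0.00971), Hsd17b2 by 0.55 ± 0.11 (0.02) and Dglucy by 0.38. Ppox had levels of 9.72, 9.73, 9.73, 9.66 and 9.56 in water and 10.02, 10.16, 10.01, 10.06 and 10.03 at 50 ppm. The step was small but the arrays were tight, and the treated mice lay above the lower dose range of 9.27 to 9.81. The rise was 0.37 ± 0.08 (SE, limma adjusted p = 0.0422), but the call was lost in all 10 fits with 1 mouse left out. Among the falls, Camk2n1, Polh and Ubl3 each lost their call in 9 of these 10 fits. Cdc25b and Dglucy lost theirs in 8, and Ndp, Rap1gap, Ggact and Ppil3 in 7. For Sfpq, Msln, Spsb1, Ppp6r1 and Zdhhc5 it was lost in 6. Signalling genes were Cdc25b, a phosphatase that activates cyclin-dependent kinases, which rose by 0.58 ± 0.13, Rap1gap, which inactivates the GTPase Rap1, by 0.59, Ppp6r1, a regulatory subunit of protein phosphatase 6, by 0.55 and Zdhhc5, a palmitoyltransferase, by 0.58. Slc41a3, of a family of magnesium transporters, rose by 0.70, and the pseudogene Pisd-ps3 by 0.40, where a near-identical copy could share its signal.

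**Figure D2:**
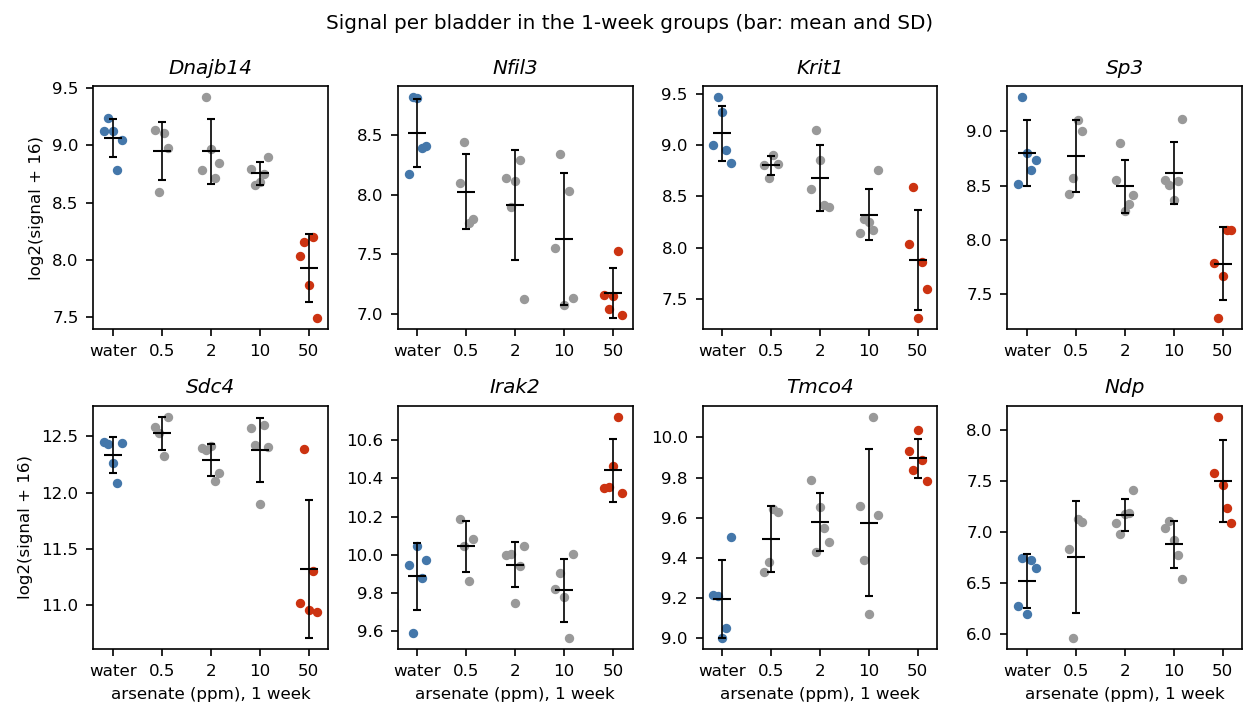
Levels (log2 of signal plus 16) by group at 1 week for genes that passed the test, with each point 1 mouse and the bars the group mean and SD. The 5 mice at 50 ppm lie apart from the 5 water mice in every panel except Sdc4, where 1 treated mouse at 12.39 sits among the controls.

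Of 20 circadian clock genes measured, 11 had an unadjusted p under 0.05 (55.0%, beside 11.5% of all genes), 5 of them higher and 6 lower. Of the 20, 1 gene passed the test, beside 0.335% of all genes. It was Nfil3, a basic leucine zipper repressor that competes with Dbp, Tef and Hlf at D boxes. Nfil3 had levels of 8.17, 8.82, 8.81, 8.39 and 8.41 in water and 7.16, 7.04, 7.15, 7.52 and 6.99 at 50 ppm. The groups were well apart, and the fall of 1.35 ± 0.23 (SE, limma adjusted p = 0.00748) was the largest outside the liver transcripts. Means at 0.5, 2 and 10 ppm were 8.03, 7.92 and 7.63, with single mice between 7.08 and 8.44, so some lower dose mice overlapped the 50 ppm mice.

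Other clock genes were separated without passing the test over all genes. Ciart, a repressor of CLOCK and BMAL1, had levels of 6.38, 6.72, 6.41, 6.46 and 6.94 in water and 7.23, 8.86, 7.03, 7.01 and 7.89 at 50 ppm, a difference of 1.02 ± 0.28 (SE, limma adjusted p = 0.11), or 0.71 without 50 ppm replicate 2. Npas2, a partner of BMAL1, was at 8.17 to 8.61 in water and 7.67 to 8.07 at 50 ppm (difference -0.45 ± 0.13, limma adjusted p = 0.111). Dbp, a D box activator singled out after its values were seen, had levels of 11.57, 11.46, 11.31, 11.51 and 11.89 in water and 11.96, 13.11, 11.91, 11.93 and 12.09 at 50 ppm. The same mouse, replicate 2, was the highest in Ciart and Dbp; the Dbp difference was 0.65 ± 0.21 (SE, limma adjusted p = 0.184), or 0.43 without it. The brightest Tef probe set differed by 0.37 ± 0.12 (limma adjusted p = 0.158), or by 0.24 without that mouse. Tested on their own, second probe sets passed for both genes: that of Tef rose by 1.03 ± 0.15 (SE, limma adjusted p = 0.000768), from levels of 8.08, 7.88, 8.14, 7.87 and 7.83 to 8.74, 9.10, 8.72, 9.13 and 9.28, and that of Dbp by 0.93 ± 0.19 (0.00929). The hour at which each mouse was killed is not in the labels.

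**Figure D3:**
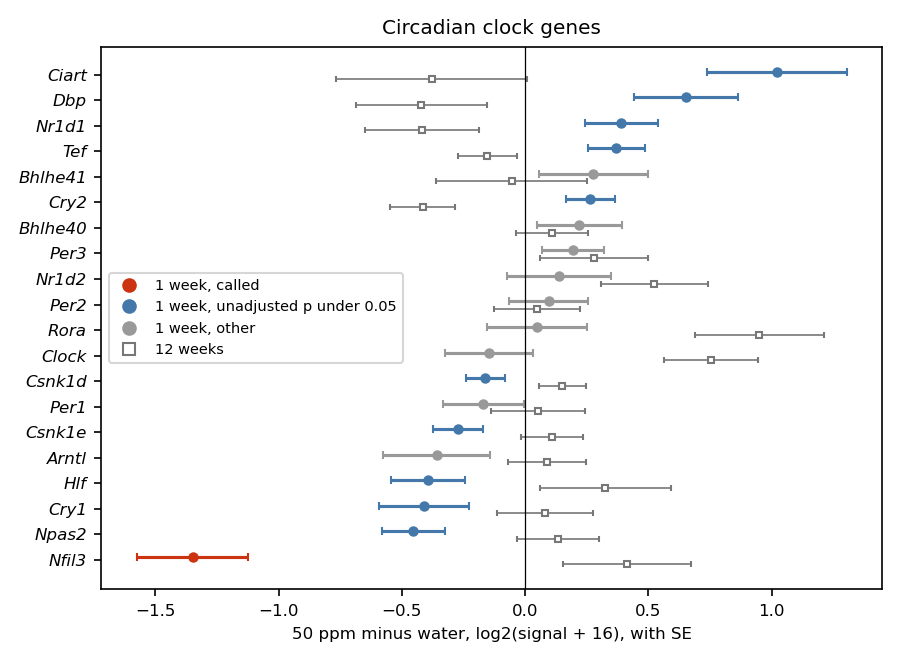
Change (50 ppm minus water, log2 of signal plus 16, with SE) of the 20 measured clock genes at 1 week (filled) and 12 weeks (open squares). Nfil3 at -1.35 is the 1 gene that passed the test at 1 week, and Ciart is the highest at 1.02.

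Genes for which arsenic is best known gave no call at 1 week. Hmox1, the inducible heme oxygenase, was 8.39 in water and 8.61 at 50 ppm (difference 0.22, limma adjusted p = 0.664). Differences for Nqo1, Mt1, Mt2, As3mt, Gclm, Txnrd1 and Cdkn1a were 0.18, -0.08, 0.03, 0.01, -0.07, 0.04 and -0.03, with limma adjusted p-values from 0.612 for Nqo1 to 0.978 for As3mt. Of 35 NRF2 targets 28 were higher and 7 lower, with a median of 0.14, and 4 had an unadjusted p under 0.05 (11.4%, beside 11.5% of all genes), all higher, among them Me1 at 0.34, Srxn1 at 0.24 and Gstp1 at 0.22. Of 24 genes of arsenic uptake, methylation and efflux 11 were higher and 13 lower, with a median of -0.01, and 3 higher and 1 lower had an unadjusted p under 0.05 (16.7%). Limma called 0 genes of either list, beside 0.335% of all genes.

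Other response lists leaned to one side without called genes. Immediate early genes, which respond quickly to growth factors, were lower in 34 of 39 members; 10 had an unadjusted p under 0.05 (25.6%, beside 11.5% of all genes), all lower, including Klf4 at -0.45 ± 0.11 (SE, limma adjusted p = 0.0628), Ccn2 at -0.95 ± 0.26 (0.11), Egr3 at -0.75 (0.126) and Ptgs2 at -0.80 (0.182). Interferon response genes were higher in 18 of 27, 7 of the 27 (25.9%) having an unadjusted p under 0.05, all higher, including Irf9 at 0.38 ± 0.10 (SE, limma adjusted p = 0.0814) and Stat2 at 0.44 (0.148). Umbrella cell genes were higher in 18 of 19 with a median of 0.093, including the regulator Grhl3 at 0.33 (limma adjusted p = 0.146), Vsig10 at 0.30, Snx31 at 0.20 and uroplakin Upk2 at 0.20. In contrast, basal urothelial genes were lower in 11 of 13 with a median of -0.08, and macrophage genes lower in 11 of 13 with a median of -0.19, including the receptor Csf1r at -0.24 and the scavenger receptor Cd163 at -0.47. Smooth muscle genes were higher in 8 of 15, and cell cycle genes in 15 of 40. Over all genes 7537 were higher and 7104 lower. Mean levels of immediate early genes were 9.66 in water, 9.38, 9.38 and 9.35 at 0.5, 2 and 10 ppm, and 9.39 at 50 ppm. For interferon response genes they were 8.47, then 8.56, 8.55 and 8.65, then 8.60. For umbrella cell genes they were 12.80, then 13.02, 12.87 and 12.95, then 12.94. In these lists every lower dose mean lay on the same side of water as 50 ppm. Basal urothelial and macrophage means were lowest at 50 ppm, at 10.46 and 10.13. In whole bladder, fewer cells of a type and less RNA per cell cannot be told apart.

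Transcripts of a liver list stood apart in size. Of 98 measured, 7 fell and 0 rose by the test, beside 0.246% and 0.0888% of all genes. In all 77 were lower (78.6%, beside 48.5% of all genes), and the median was -0.57. Alb, serum albumin, had levels of 7.79, 9.26, 10.46, 10.32 and 11.42 in water and 6.49, 7.93, 7.87, 5.91 and 6.62 at 50 ppm. The controls spread over more than 3 log2 units and overlapped the treated mice, and Alb fell by 2.89 ± 0.62 (SE, limma adjusted p = 0.0304). The other called changes were -3.64 for Serpina1b, -3.27 for Serpina1c, -3.0 for Fabp1, -2.73 for Fga, -2.65 for Plg and -2.30 for Cyp2d10; these are secreted or enzymatic products of hepatocytes. The mean level of the list in the water mice was 7.01, 7.05, 8.20, 7.66 and 8.06, against 6.61 to 6.99 in the 50 ppm mice, and group means at 0.5, 2 and 10 ppm were 7.34, 7.54 and 7.03. With that mean as a covariate 27 genes were called, and Nfil3 was at -1.24 with an adjusted p of 0.0564 by limma; its part in the results was not tested further.

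RNA quality and labelling were also compared. RNA integrity numbers averaged 9.38 ± 0.24 at 50 ppm and 9.28 ± 0.33 in water (SD, n = 5 each; exact permutation p = 0.675). The log2 ratio of the 3' to the 5' control probe set of Gapdh was -0.49 ± 0.06 at 50 ppm and -0.36 ± 0.05 in water (SD, n = 5 each), with no overlap (two-sided exact permutation p = 0.00794, the smallest that 5 against 5 can give; adjusted over 6 measures 0.0476). Levels of -0.398, -0.420 and -0.398 were found at 0.5, 2 and 10 ppm. With this ratio as a covariate, chosen after seeing the data, 10 genes were called: Krit1 kept its call (limma adjusted p = 0.0231) and Nfil3 was at -1.01 with an adjusted p of 0.122. The calls of Dnajb14 and Sp3 held in all 27 settings run for them, the ratio included, but with the mean of its probe sets Dnajb14 changed by -0.62 (limma adjusted p = 0.0213). Under that setting Krit1 was at -0.59 with an adjusted p of 0.0796 by limma.

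The lower doses gave a second reference. In the contrast of 50 ppm with the mean of 0.5, 2 and 10 ppm, which shares the 50 ppm arrays with the contrast against water, 1205 genes (8.23%) were called, 600 higher and 605 lower. Dnajb14 had a difference of -0.95 (limma adjusted p = 0.000202), Sp3 of -0.84 (0.00287), Irak2 of 0.51 (0.00198), Krit1 of -0.72 (0.00895) and Nfil3 of -0.68 (0.0273), whereas Ppp1r3c gave -0.07 (0.701). The largest rises were Myl10 at 1.19, Ghrh at 1.14, Tspo2 at 1.08 and Prss51 and Cd244a at 0.99, all dim, and the largest falls were the liver transcripts Serpina1b at -2.49, Fabp1 at -2.36, Serpina1c at -2.31, Alb at -1.96 and Fga at -1.89. The number called was 263, 590 and 347 without 50 ppm replicate 2, 3 and 4, and 2465 without replicate 5. RNA integrity numbers were 8.9 to 9.5 at 0.5 ppm, 7.2 to 9.7 at 2 ppm and 8.4 to 9.3 at 10 ppm. That number was missing for 2 of the 10 ppm mice, and it was 9.1 to 9.7 at 50 ppm. With it as a covariate 1705 genes were called, 1032 of them shared with the 1205. Its part in this contrast was not tested further.

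At 12 weeks other mice were exposed to the same dose, and their changes were compared with those at 1 week. At that harvest 593 genes (4.05%) were called. Of the 42 genes called at 1 week outside the liver list, 36 (85.7%) had the opposite sign at 12 weeks, beside 61.3% of all genes, and 0 were called in the same direction. The difference between harvests was itself called for 31 of the 42 (73.8%, beside 7.32% of all genes), although the selection at 1 week enters that difference. The 1071 genes called for that difference became 64 once the level of the poly-A spikes entered the fit, and 498, 681 and 1623 without 50 ppm replicate 2, water replicate 2 and 50 ppm replicate 5 of the 1-week mice. Sp3, which fell at 1 week, rose at 12 weeks from 8.00 ± 0.48 to 8.87 ± 0.24 (SD, n = 5 each), by 0.87 ± 0.24 (SE, limma adjusted p = 0.0406), and the difference between harvests was -1.89 (0.000533). F2r also rose at 12 weeks, by 0.73 (limma adjusted p = 0.0467), and Tmco4 fell by 0.46 (0.044). For Dnajb14 the 12-week change was 0.65 (limma adjusted p = 0.163) and the difference between harvests -1.78 (0.00214); for Nfil3 they were 0.41 (0.335) and -1.76 (0.00319).

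**Figure D4:**
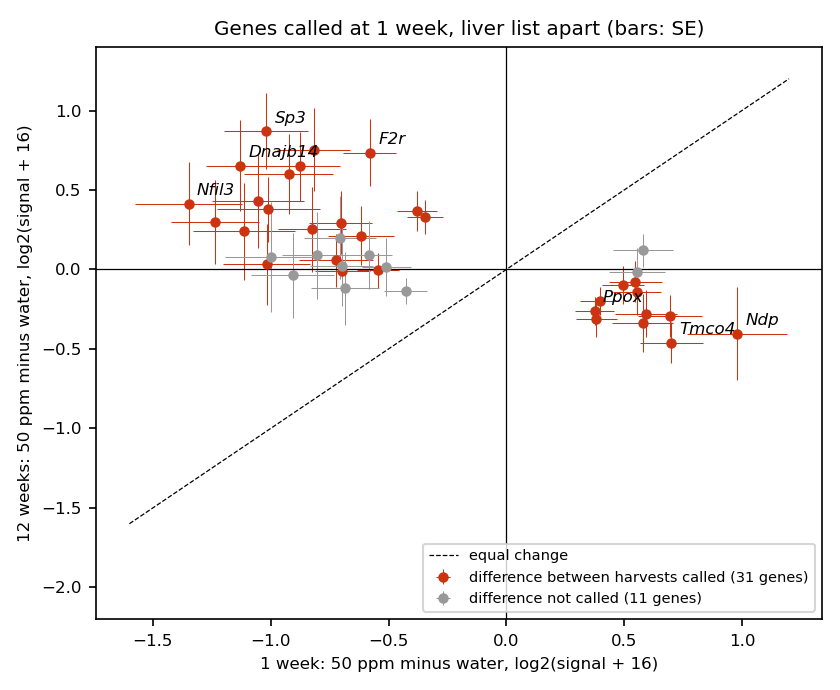
Change at 1 week (horizontal) and at 12 weeks (vertical), 50 ppm minus water on the log2 of signal plus 16, of the 42 genes called at 1 week outside the liver list, with SE bars. In 36 of them the signs are opposite, and red marks the 31 whose difference between harvests was called.

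Over all genes, the largest differences between harvests lay outside the 42. Egr1, an immediate early factor, differed between harvests by 2.26 and changed at 12 weeks by -2.87 ± 0.34 (SE, limma adjusted p = 7.81e-05), from 12.60 to 9.72. Ccn1, a matricellular protein, differed by 2.58, Clcn5 by 2.30, Akap4 by 2.23 and Opalin by 2.12. The largest negative differences were Serpina1b at -3.60, Alb at -2.97, Plg at -2.69, Gnmt at -2.66 and Fga at -2.60. Hmox1, with 0.22 at 1 week, rose by 0.66 at 12 weeks (limma adjusted p = 0.0202).

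Probe sets of 1 gene did not always move together. For 28 of the 42 called genes other probe sets were measured, 62 in all: 48 had the same sign as the one used, 20 had at least 0.5 of its change, and 17 had the same sign with an unadjusted p under 0.05. The second probe set of Dnajb14 gave -0.11, the 4 others of Krit1 gave -0.92, -0.54, -0.19 and -0.07, and that of Sesn3 gave -0.14. Second sets with the opposite sign were those of Camk2n1 at 0.21, Ubn1 at 0.12 and Zdhhc5 at -0.02. The second set of Crim1 gave -0.08. Among the 4 others each of Tmed5 and Pisd-ps3, 2 had the same sign as the one used. For Slc41a3 this held for 1 of 2, for Far1 for 3 of 4 and for Med1 for 5 of 6. Sp3, Nfil3, Irak2, Ndp and Rap1gap were measured by 1 probe set each.

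Testing each of 27065 single-gene probe sets on its own, an alternative chosen after seeing the data, called 433 (1.6%), 165 higher (0.61%) and 268 lower (0.99%), in 395 genes. That count was 169, 242 and 240 without water replicate 2, 3 and 5, and 188 and 701 without 50 ppm replicate 3 and 2. Called sets were more frequent among those that are not the brightest of their gene, at 311 of 12424 (2.5%), than among the brightest, at 122 of 14641 (0.833%). Of the 433, 288 had groups without overlap, beside 3.26% of all probe sets. The change of the brightest set of the same gene was under 0.25 for 235 of the 311, as for 10033 of all 12424, so its share among the called sets was not above that of all sets. Several sets of 1 gene were called in the same direction for Dnm2, a membrane fission GTPase, and Ndrg1, a stress-responsive gene, with 3 higher each, and for the kinase Gsk3b, the nuclear RNA Malat1 and Msi2, with 3 lower each. Outside the liver list, 7.26% of the sets called lower were annotated to a RefSeq transcript, against 21.8% of those called higher and 17.4% of all. That share was 22.4% of all brightest sets and 11.5% of all others. Of the 413 called sets outside the liver list, 307 were not the brightest, so the 17.4% is of another make-up.

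The difference between a probe set and the brightest of its gene, taken mouse by mouse, was called for 305 of 12424 pairs (2.45%), 165 higher and 140 lower than the brightest, and between 79 without water replicate 2 and 653 without 50 ppm replicate 2. The 20 named here were called themselves and in that difference, were bright and without overlap, and are the 10 in each direction with the largest change of their own, not the largest difference from the brightest, a rule set after the values were seen. Cbl, a ubiquitin ligase of receptor tyrosine kinases, had levels on 1 set of 8.94, 8.90, 8.63, 8.54 and 9.03 in water and 7.20, 7.95, 6.75, 7.80 and 7.16 at 50 ppm. That set fell by 1.43 ± 0.20 (SE, limma adjusted p = 0.000556) while the brightest gave 0.02, a difference of -1.45 ± 0.24 (0.0032). Gpr107, a Golgi membrane protein, had levels of 8.64, 8.33, 8.41, 8.22 and 8.43 in water and 7.03, 7.61, 6.95, 6.93 and 7.11 at 50 ppm on a set whose brightest partner gave 0.09. A set of Xist, the RNA of X inactivation, fell by 1.64 from a mean of 7.33 in water, while the brightest gave 0.21. Outside the 20, a brighter set of Xist also fell, by 1.12 ± 0.16 (SE, limma adjusted p = 0.000556). Its mean went from 12.37 in water to 11.24 at 50 ppm. Falls of 1.24 to 1.39 were found for sets of Etnk1, Sec62, Rbm5, Golt1b, Chka, Scmh1 and 2610005L07Rik. All tested sets of Sec62 were lower, from -0.28 to -1.32. Beside brightest sets at 0.13 and 0.12, further sets of Scmh1 and Chka gave -0.65 and -0.44, not called. The brightest is chosen over all 49 arrays. In the water mice it was dimmer than the named set for Golt1b (8.08 against 8.43), Chka (8.53 against 8.95) and 2610005L07Rik (8.93 against 9.31). Of Msi2, an RNA-binding protein, the brightest set gave 0.15 while the others called gave -1.06, -1.04 and -0.87.

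On the rising side, Atrn, attractin, had levels on 1 set of 7.58, 7.56, 7.97, 7.75 and 8.04 in water and 8.90, 8.48, 9.01, 8.79 and 9.88 at 50 ppm, a rise of 1.23 ± 0.20 (SE, limma adjusted p = 0.00147) with the brightest at 0.09. Smad3, a transducer of TGF-beta signals, had levels of 7.66, 7.21, 7.45, 7.32 and 6.93 in water and 7.91, 8.59, 8.14, 8.27 and 8.36 at 50 ppm, a rise of 0.94 ± 0.16 (0.00246) with the brightest at 0.13. Both sets separated the groups completely. Sets of Nmt1, Tom1l2, Mgat3, Lars2, Tbc1d14, Add1, Lig3 and Ptk2b rose by 0.68 to 0.88. At 12 weeks 76.8% of the 413 sets called at 1 week outside the liver list had the opposite sign, beside 59.7% of all probe sets. The difference between harvests was called for 63.9%, beside 7.09% of all, although the selection at 1 week enters that difference. For probe sets that difference was not fitted with the poly-A spike level. At 12 weeks alone 944 sets (3.49%) were called. The Gapdh ratio moved with these results too: with it as a covariate 194 probe sets and 75 pairs were called, and with the 10 arrays of both groups alone 185 and 2.

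**Figure D5:**
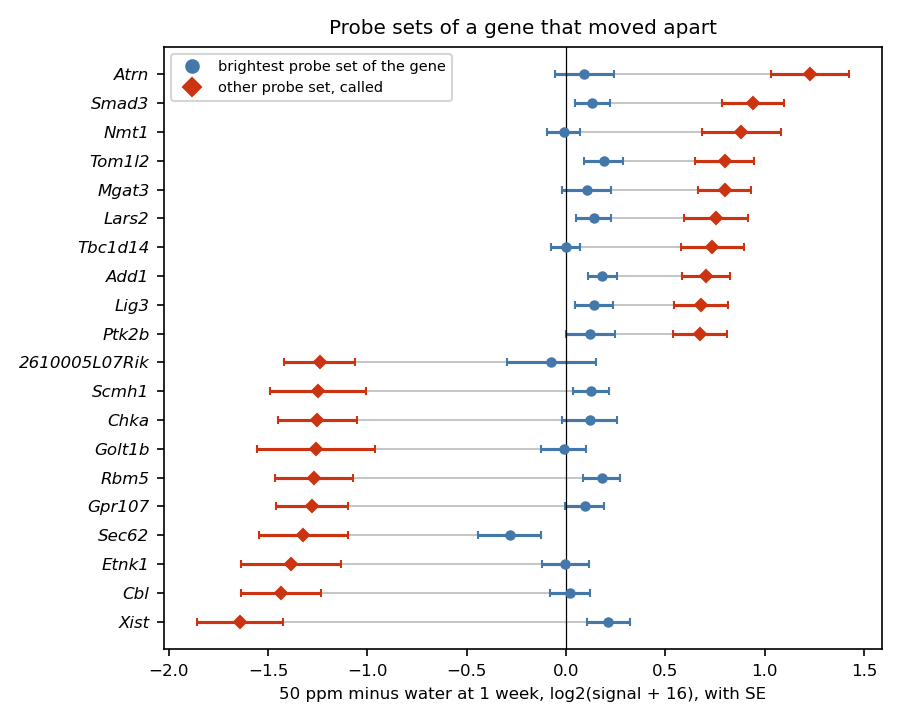
Change at 1 week (50 ppm minus water, log2 of signal plus 16) of the 20 probe sets named beside the brightest probe set of the same gene. The named sets run from -1.64 (Xist) to 1.23 (Atrn), while the brightest sets lie between -0.28 (Sec62) and 0.21 (Xist). Bars are SE.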

How the data were processed

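The values deposited by the authors are array intensity on a linear scale. Per the submitters' processing notes, GCOS 1.0 made them, and its settings are not stated in what was used here. Every array had a trimmed mean of 500.003 to 500.004, so arrays were scaled before deposit and compared as deposited. Of 45101 probe sets, 34945 had 1 gene (18193 genes), 932 several and 9160 none; 64 were controls. Medians of the 10 arrays lay between 93.4 and 105, and the number of arrays limits the precision.

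Values were taken as log2(value + 16). Genes entered the tests if they exceeded the 40th percentile in 4 or more of the 49 arrays, each through its brightest probe set by mean. Limma 3.58.1 under R 4.3.3 (lmFit, then eBayes with trend) was fitted on the 24 arrays of 1 week, or on all 49 for the difference between harvests. Called means a Benjamini-Hochberg adjusted p under 0.05 over all genes, and near the floor means a group mean under 5. Array measures were compared by exact permutation tests. The code was tested on simulated data.

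Outside the liver list, the genes named are called ones with a higher mean of at least 7 and all 50 ppm arrays on 1 side of the water mean, the 15 largest rises and falls and the 10 of smallest p. Of the liver list they are the 6 of smallest p and the seventh called, of other lists the called members and up to 4 of smallest p, of the other contrasts the 5 largest each way, and always 8 arsenic genes. The genes, the 43 lists and the tests were chosen with earlier results of these data known. Alternatives (normalization, offset, filter, probe set choice, covariates, array weights, each mouse left out) are given in the closing section.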

Additional observations from a re-analysis of the deposited data

Results flagged for a closer look

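In groups of 5, 10 of 230 sets of values tested by Dixon's criterion had a single mouse far from the others, and chance alone gives about 1 in 20. At 50 ppm, replicate 2 stood apart in Sdc4 at 12.39 (the others 10.94 to 11.30), Tef at 11.65 (10.89 to 11.10), Dbp at 13.11 (11.91 to 12.09) and a Gpr107 probe set at 7.61 (6.93 to 7.11). Replicate 3 stood apart in Med1 at 8.84, and replicate 4 in Grhl3 at 11.81 and Prss51 at 7.16. Among the water mice, replicate 4 stood apart in Sfpq at 10.88, replicate 1 in Egr3 at 6.45 and replicate 2 in the actin 3' to 5' log2 ratio at 0.300.

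The 50 ppm effect at 1 week differed from that at 12 weeks, by limma over all 49 arrays at an adjusted p under 0.05, for 70 of the 109 genes and probe sets named and tested (51 genes and 19 probe sets). Over all genes the share was 7.32%, and over all probe sets 7.09%. Many of the 109 were chosen by their 1-week change, which enters this difference. Others were chosen for the size of the difference itself, so their outcome was set in advance. The share is therefore no result about the named members. Each value is the 1-week change minus the 12-week change in log2 units. Lower at 1 week were the genes Serpina1b -3.60, Alb -2.97, Plg -2.69, Gnmt -2.66, Fga -2.60, Fabp1 -2.56 and Serpina1c -2.55. Further values were Cyp2d10 -2.17, Sp3 -1.89, Dnajb14 -1.78, Nfil3 -1.76, Rbm25 -1.59, Far1 -1.57 and Krit1 -1.54. Others were Tmed5 -1.53, Srek1 -1.53, Crim1 -1.49, Ggact -1.39, Sesn3 -1.35, F2r -1.31 and Zfp280d -1.08. There followed Sdc4 -1.05, Prdm2 -0.998, Sf3b1 -0.91, Polh -0.83, Spsb1 -0.78, Camk2n1 -0.75 and Ppp1r3c -0.68. Then came Ubl3 -0.67 and Cldnd1 -0.54. Higher at 1 week were the genes Ccn1 2.58, Clcn5 2.30, Egr1 2.26, Akap4 2.23, Opalin 2.12, Ndp 1.38 and Tmco4 1.16. More values were Slc41a3 0.99, Cdc25b 0.91, Rap1gap 0.87, Irak2 0.70, Dglucy 0.69, Ppox 0.63 and Hsd17b2 0.62. Others higher were Pisd-ps3 0.60, Gpat4 0.59, Grhl3 0.58, Vsig10 0.57, Irf9 0.54, Tef 0.52 and Snx31 0.44. Probe sets with a lower value at 1 week were those of Golt1b -2.28, Xist -2.19, Etnk1 -2.08, Cbl -2.07, Sec62 -1.90, Rbm5 -1.80 and Gpr107 -1.45. Lower too were those of Scmh1 -1.42, Chka -1.41 and 2610005L07Rik -1.37. Probe sets with a higher value were those of Smad3 1.27, Mgat3 1.08, Tom1l2 0.99, Nmt1 0.98, Lars2 0.95, Add1 0.89 and Tbc1d14 0.87. Higher too were those of Lig3 0.82 and Ptk2b 0.70.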

How the results depend on the processing

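Beside the 49 genes called against water, alternatives gave other counts, shown with the number shared with the 49 in brackets. All probe sets gave 395 (49), the mean of a gene's probe sets 92 (26) and array weights 247 (48). The 10 arrays of both groups alone gave 27 (25), the liver list mean as a covariate 27 (20) and the Gapdh ratio as a covariate 10 (6). The cause was not tested, except that more probe sets entered the first of these settings and fewer arrays the fourth. With 1 mouse left out the range was 23 to 82. Quantile normalization gave 51, an offset of 64 gave 48 and no filter gave 52. For the contrast with lower doses (1205), the liver covariate gave 1834, and leaving out a mouse 263 to 2465. For the difference between harvests (1071), the liver covariate gave 1786, the poly-A level 64 and the Gapdh ratio 2809, and leaving out a mouse 498 to 1623. For single probe sets (433), the 10 arrays gave 185, the Gapdh ratio 194 and the liver covariate 202, with 169 to 701 when a mouse was left out. For pairs of probe sets (305), the same settings gave 2, 75 and 62, the poly-A level 166, and leaving out a mouse 79 to 653. The Gapdh ratio, the poly-A level in the last contrasts and both probe set results were chosen after seeing the data. None of the 49 called genes changed sign in the settings run; of genes named without a call, Ccn1, As3mt, Cdkn1a, Gclm, Mt1, Mt2 and Txnrd1 had changes on both sides of 0.

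The replicate numbers did not pair the samples (correlations of deviations from -0.065 to 0.064). With the replicate number as a block the counts were 53, 940, 1085, 373 and 252 in the order above, within 1.5 times of the unblocked ones. The changes of dim genes depend on the offset, and signal near the floor limits what can be seen there.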
